A study of Mus musculus with 4 samples.

Results

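The nuclear genes for subunits of the respiratory chain and of ATP synthase were described in 4 lung tumours of KP mice. The members were the rows of the count table whose symbol begins with Ndufa, Ndufb, Ndufc, Ndufs or Ndufv and a digit, is Sdha, Sdhb, Sdhc or Sdhd, or begins with Uqcr, with Cox and a digit from 4 to 8, or with Atp5. Rows with -ps in the symbol were left out, which dropped 1 row. This gave 85 of 39017 rows: 37 of complex I, 4 of complex II, 8 of complex III, 18 of complex IV and 18 of complex V (ATP synthase). No measured value was used to choose them.

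The respiratory chain sits in the inner mitochondrial membrane. Complex I oxidises NADH and complex II oxidises succinate, both pass electrons through ubiquinone to complex III, and cytochrome c carries them on to complex IV, which reduces oxygen. Complexes I, III and IV pump protons, and ATP synthase uses the proton gradient to make ATP. All of these except complex II also hold subunits encoded by mitochondrial DNA, and several small subunits of complex IV come as a widely used form and a form known from heart, skeletal muscle, testis or lung.

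The 4 tumours form 1 group, labelled Control, so no conditions were compared. They came from male C57BL/6 mice with the alleles K-rasLSL-G12D/WT; p53Fl/Fl, in which the K-ras allele is activated and p53 is removed where Cre acts. Each mouse received 1500 units of a lentivirus that makes Cre from the PGK promoter, which is not restricted to a cell type, and lung tumours were macrodissected 22 weeks and 5 days later. They were dissociated to single cells before RNA was isolated from the bulk suspension, and stranded polyA libraries were made from 500 ng. The labels also give a heterozygous floxed allele without naming its gene, the columns of the log2 table carry WT, and the study's methods say that control animals were either WT or carried 1 floxed Slc2a1 allele, so all 4 tumours may share such an allele. Each tumour gave 1 library, so a difference between tumours and one between library preparations cannot be told apart.

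Total counts were between 8151613 and 8799007 per tumour. Levels are given as CPM, the counts per 1e+06 of the effective library size (with scaling factors of 0.980 to 1.03 from the TMM method), where 3 counts, the most that a count of 0 allows, are worth 0.330 to 0.370 CPM. The summed CPM of 7 alveolar type 2 cell markers was 32561, 56099.5, 52783 and 60344 in tumours 1 to 4, and that of 4 epithelial markers was 3972, 2587, 2488 and 2632. Of the epithelial markers, 3 were highest in tumour 1, while Cdh1 was at 842, 887, 846 and 876 CPM. In this order the summed CPM of 5 pan-leukocyte markers was 114, 136, 269 and 156. In bulk RNA, fewer cells of a type and less RNA per cell cannot be told apart. The 37 rows for mitochondrial DNA genes held 0 counts in every tumour, so the mitochondrially encoded subunits were not measured here.

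Of the 85 members, 81 had a mean of at least 1 CPM and entered the tests across all genes, 75 had at least 10 CPM and 20 had at least 100 CPM. The 4 below 1 CPM were Cox7b2, Cox8b, Cox8c and Atp5l2. All 85 were found in the GENCODE M21 annotation of GRCm38 (mm10), on 19 chromosomes, with Ndufa1, Ndufb11 and Cox7b on chromosome X. Atp5l2 is a processed pseudogene there, and the others are protein-coding genes. The symbol rule also takes in Atp5s and Atp5sl, which are not subunits of the enzyme, and Cox7a2l, which takes part in joining complexes into supercomplexes. Ndufa4 is counted with complex I by its symbol, although its protein is known as a subunit of complex IV.

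Stretches of 4 promoters are shown because 2 of these genes encode common subunits whose promoters hold a motif match and 2 encode muscle isoforms that had few or no counts in these tumours. They are RefSeq sequences on GRCm38.p6, all read 5′ to 3′ on the strand of the gene and limited to bases before the RefSeq start that no annotated exon covers. Capitals mark a match to GCGCANGCG on either strand, the core of the motif of NRF1, a factor known for binding promoters of nuclear respiratory genes. The stretches lie at chr5:115348982-115349129 (minus strand), chr4:123718203-123718436 (minus strand), chr7:30183921-30184143 (plus strand) and chr7:140900447-140900696 (minus strand).
Cox6a1: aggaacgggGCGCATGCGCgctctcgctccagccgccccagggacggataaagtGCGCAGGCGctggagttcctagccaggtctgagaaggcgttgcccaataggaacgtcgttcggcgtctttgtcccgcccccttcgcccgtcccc
Ndufs5: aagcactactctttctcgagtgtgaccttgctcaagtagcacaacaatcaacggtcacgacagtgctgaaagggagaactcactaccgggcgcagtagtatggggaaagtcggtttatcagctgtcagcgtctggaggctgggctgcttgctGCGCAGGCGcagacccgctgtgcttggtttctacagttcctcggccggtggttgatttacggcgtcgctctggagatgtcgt
Cox7a1: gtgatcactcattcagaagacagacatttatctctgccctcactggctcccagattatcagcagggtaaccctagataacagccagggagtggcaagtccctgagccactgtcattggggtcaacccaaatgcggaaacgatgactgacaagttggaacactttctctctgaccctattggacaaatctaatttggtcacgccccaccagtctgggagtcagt
Cox8b: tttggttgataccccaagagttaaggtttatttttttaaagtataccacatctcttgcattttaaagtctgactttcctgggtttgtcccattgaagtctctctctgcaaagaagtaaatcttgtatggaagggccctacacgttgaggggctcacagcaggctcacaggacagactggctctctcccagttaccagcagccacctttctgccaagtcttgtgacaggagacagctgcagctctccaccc
In the Cox6a1 stretch the matches begin 162 and 117 bases before the start, with 1 more match on the other strand that overlaps the former, and the Ndufs5 stretch holds 1, which begins 98 bases before it. The Cox7a1 and Cox8b stretches hold none, which says only that these letters are not in those windows. In the search described next, Cox6a1 was the only 1 of 13 complex IV genes with this match. Common forms such as Cox6b1 and Cox8a had none, so the 4 stretches do not set common forms apart from muscle forms.

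Motifs of 3 factors or families, chosen after the levels had been seen, were searched on both strands, from 250 bases before to 50 bases after each start, in 69 members with a RefSeq promoter. The NRF1 core GCGCANGCG was found in 20 members (29.0%), against 14.6% of 10669 genes tested with a promoter and 6.25% of all 32851 promoters. Among these 20 were Sdha and Ndufb4 with 3 matches each on the strand of the gene, Sdhd, Uqcrc1, Uqcr11 and Cox6a1, 8 genes of complex I, and the ATP synthase genes Atp5c1, Atp5g2, Atp5g3, Atp5h, Atp5k, Atp5l and Atp5o. The motif CCGGAAG, bound by ETS factors such as GABP, was found in 16 members (23.2%), against 19.4% of genes tested and 8.86% of all promoters. The motif AAGATGGCG, bound by YY1, was found in 8 members (11.6%), namely Ndufa9, Ndufc1, Ndufs4, Ndufs6, Ndufs7, Atp5j, Atp5j2 and Atp5sl, against 3.38% of genes tested and 1.4% of all promoters. At least 1 of the motifs was in 36 of 69 members (52.2%), against 32.6% of genes tested, and in no member did motifs of different factors overlap. A match is a description of the letters and not a measured site. By complex, members with at least 1 match were 16 of 32 in complex I, 3 of 3 in II, 3 of 5 in III, 3 of 13 in IV and 11 of 16 in V. The median level of the 20 tested members with an NRF1 match was 39.4 CPM per kb and that of the 47 without was 31.9, while the 8 with a YY1 match had 15.8 and the 59 without had 37.7. These medians are per kb of all annotated exons merged, and other lengths were not tried for them. The median first base of the 9 YY1 matches lay 24 bases after the start.

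**Figure D1:**
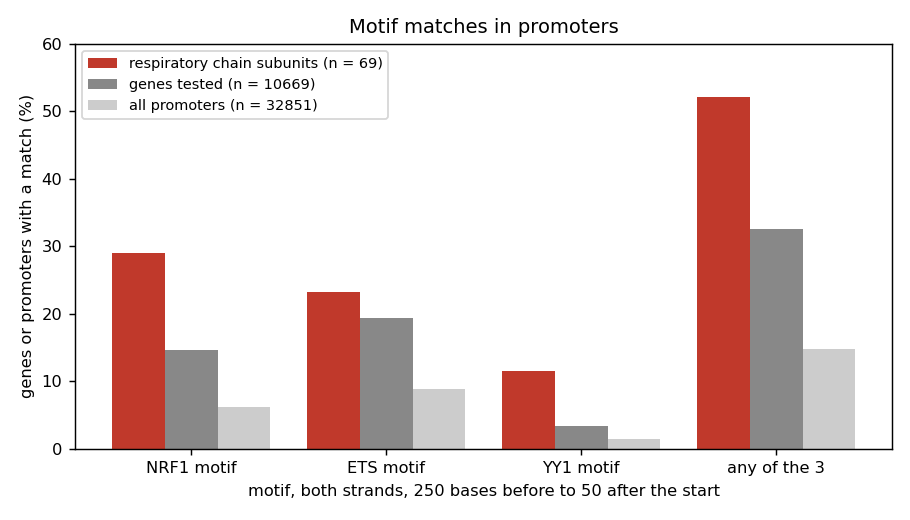
Share of genes or promoters with at least 1 match to each motif, on an axis in percent that starts at 0, for 69 respiratory chain members, 10669 genes tested and all 32851 promoters. The member bars stand highest for each motif, at 29.0% for NRF1, 23.2% for ETS, 11.6% for YY1 and 52.2% for any of the 3.

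The members together held 0.778, 0.730, 0.736 and 0.680% of all counts in tumours 1 to 4, a mean of 0.731% ± 0.0398 (SD, n = 4). The Wilson intervals of these shares, at 95% confidence and for counting error alone, ran from 0.675 to 0.686% in tumour 4 and from 0.772 to 0.783% in tumour 1, which do not overlap. ATP synthase genes held the largest share, 0.288% ± 0.0125, followed by complex I with 0.204% ± 0.0128, complex IV with 0.110% ± 0.00869, complex III with 0.0718% ± 0.00544 and complex II with 0.0573% ± 0.00478 (SD, n = 4). These shares grow with the number and the length of the genes. The 10 highest members held between 45.6 and 47.9% of the members' CPM in each tumour, and Atp5a1 and Atp5b alone held between 21.7 and 24.4%.

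To compare levels between genes, CPM was divided by the length of annotated exon in kb, all exons of a gene merged. On this scale the median over members, averaged over tumours, was 30.5 ± 3.03 CPM per kb for complex I, 50.9 ± 4.87 for II, 63.5 ± 7.49 for III, 29.6 ± 7.14 for IV and 40.6 ± 3.38 for V (SD, n = 4). This order depends on the gene model: with the principal transcript as the length, the medians were 48.6, 73.2, 72.7, 92.4 and 95.4 CPM per kb for I to V, so that ATP synthase moved from the third place to the first. The median of complex IV was 50.7 CPM per kb without tumour 1, where Cox7a1 fell below 1 CPM and left the set, and 85.3 when only members with at least 10 CPM were taken. Within complexes the levels ranged far more widely than between them. From the lowest to the highest tested member, levels differed by 3.72-fold in complex II, 22.7-fold in III, 90.1-fold in IV, 105-fold in I and 833-fold in V. The range of complex V rests on the merged exons of Atp5l: with the principal transcript the ranges were 3.85-fold in II, 42.6-fold in III, 90.2-fold in IV, 173-fold in V and 203-fold in I. That of complex I rests on Ndufa4 and its paralog Ndufa4l2, which are counted there by symbol only. Without this pair, complex I ran from 4.44 CPM per kb for Ndufb2 to 95.8 for Ndufb11. With the principal transcript it then ran from 5.72 for Ndufb2 to 109 for Ndufa7. The rank order of the 81 members was nearly the same in each tumour, with Spearman's rho between pairs of tumours from 0.974 to 0.985 across genes, which share their lengths and are not independent replicates.

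**Figure D2:**
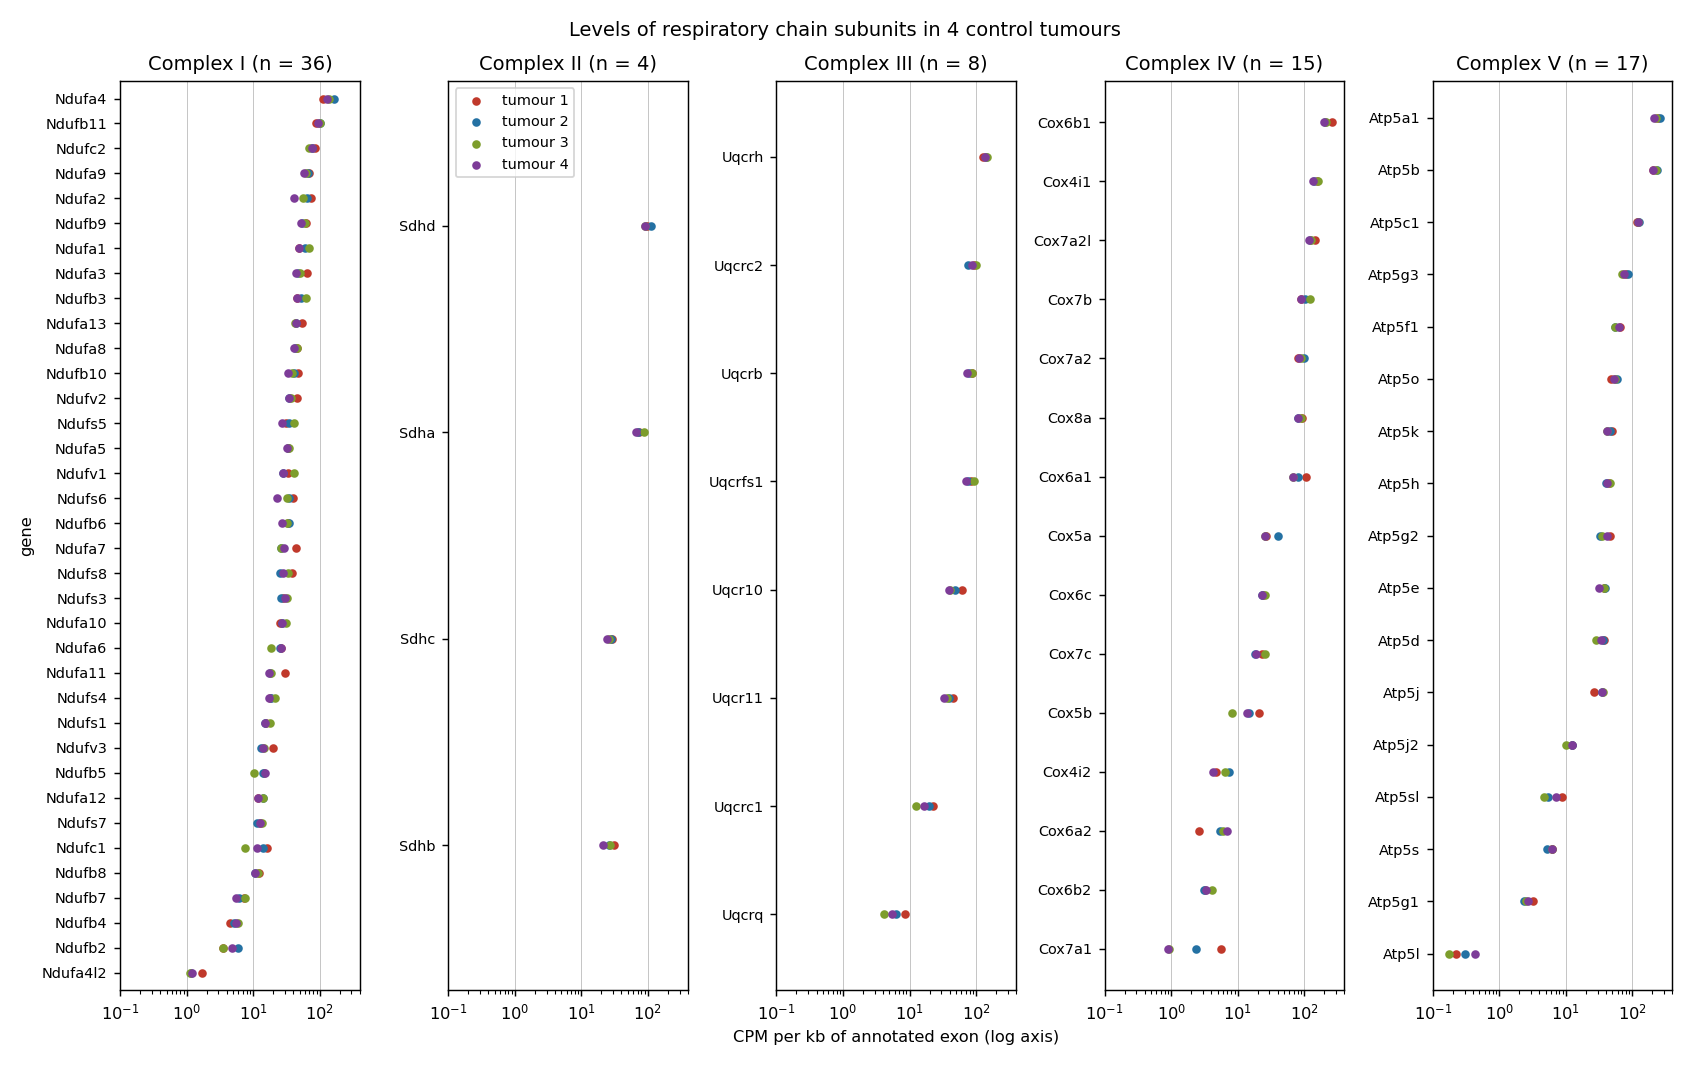
Level of 80 of the 81 tested members in CPM per kb of annotated exon, on a log axis, with 1 point per tumour and 1 panel per complex, sorted by the mean. The points of a gene lie close together beside the range between genes, which spans from 0.281 CPM per kb for Atp5l to 234 for Atp5a1.

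Complex I is the entry point for NADH. Its catalytic and redox-centre subunits carry the flavin and the iron-sulphur clusters. The spread did not exceed counting noise for Ndufs7, an iron-sulphur subunit at 21.7, 19.6, 23.1 and 22.0 CPM in tumours 1 to 4 (chi-square test, adjusted p = 0.519), and did exceed it for Ndufs1, Ndufs3, Ndufs8, Ndufv1 and Ndufv2. The largest iron-sulphur subunit, Ndufs1, was at 126, 119.6, 145 and 123 CPM, with tumour 3 above the rest (adjusted p = 1.98e-05, but 0.536 without tumour 3). Ndufv1, which holds the NADH site and the flavin, was at 88.5, 73.9, 107 and 73.6 CPM (adjusted p = 3.87e-15), highest in tumour 3 and at nearly equal CPM in tumours 2 and 4. Its partner Ndufv2 was at 97.2, 73.1, 80.0 and 73.9 CPM, with tumour 1 highest (adjusted p = 1.63e-08, 0.253 without tumour 1). Ndufs8 was at 49.0, 32.4, 43.2 and 35.9 CPM, highest in tumour 1, and Ndufs3 at 60.5, 56.7, 69.6 and 65.4 CPM, highest in tumour 3. The call of Ndufs3 (adjusted p = 0.00779) was lost without tumour 2 (0.0866) and without tumour 3 (0.101).

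Most other members of complex I are accessory subunits. The Ndufa genes had a median of 39.4 ± 3.75 CPM per kb and the Ndufb genes, of the membrane arm, 22.9 ± 1.69 (SD, n = 4), but with the principal transcript as the length both had a median of 52.0. The highest level in the family was that of Ndufa4, at 112, 166, 139 and 129 CPM per kb in tumours 1 to 4, and the lowest that of its paralog Ndufa4l2, a gene known to be induced in hypoxia, at 1.71, 1.17, 1.13 and 1.19. The accessory subunits also held the most variable members. Ndufc1 was at 24.3, 21.0, 11.1 and 17.1 CPM (SD 0.49 on the log2 scale), Ndufa11 at 33.2, 19.9, 20.2 and 19.0 (SD 0.38), Ndufa2 at 42.6, 37.4, 32.3 and 23.4 (SD 0.37), Ndufb2 at 19.5, 33.1, 20.1 and 27.2 (SD 0.37) and Ndufa7 at 81.1, 48.3, 48.3 and 52.7 (SD 0.36). Tumour 1 was highest for Ndufc1, Ndufa11, Ndufa2 and Ndufa7, and tumour 2 for Ndufb2. At the other end, Ndufa5 was at 34.0, 34.8, 35.3 and 32.8 CPM (SD 0.05), a spread within counting noise (adjusted p = 0.848).

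Complex II, succinate dehydrogenase, joins the respiratory chain to the citric acid cycle and is entirely encoded by nuclear genes. The flavin subunit Sdha (ENSMUSG00000021577, chr13:74322254-74350280) was at 301, 292, 359 and 272 CPM, the iron-sulphur subunit Sdhb at 69.8, 58.4, 59.5 and 47.9, and the membrane anchors Sdhc and Sdhd at 93.1, 91.5, 83.4 and 79.6 and 120.0, 139, 113 and 110.3. All 4 were lowest in tumour 4, and the tumour in which each was highest differed: tumour 3 for Sdha, tumour 1 for Sdhb and Sdhc and tumour 2 for Sdhd. The spread exceeded counting noise for each (adjusted p = 1.29e-23, 2.6e-07, 0.00892 and 4.26e-07), although that of Sdhc did not without tumour 4 (0.125) nor that of Sdhd without tumour 2 (0.178). Per kb, Sdhd was highest at 97.9 ± 10.3 and Sdhb lowest at 26.3 ± 3.99 (SD, n = 4), whereas with the principal transcript Sdha was highest at 106 and Sdhc lowest at 27.4.

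Complex III passes electrons from ubiquinol to cytochrome c. The Rieske iron-sulphur protein Uqcrfs1 was at 115, 105, 126 and 97.4 CPM and the core protein Uqcrc2 at 239.8, 191, 254 and 223, both highest in tumour 3. The other core protein, Uqcrc1 (ENSMUSG00000025651, chr9:108936633-108949623), was at 92.1, 81.0, 51.8 and 69.3 CPM and lowest in tumour 3, where Uqcrc2 was highest. Small subunits lay at both ends of the range: Uqcrh, the hinge protein, was at 127, 143, 145 and 137 CPM per kb and Uqcrq at 8.53, 6.28, 4.18 and 5.39. Uqcrq was also among the most variable members (SD 0.43 on the log2 scale, tumour 1 highest and tumour 3 lowest). All 8 members varied beyond counting noise, but Uqcr10, Uqcr11, Uqcrh and Uqcrq did not once tumour 1 was left out. Uqcrb (adjusted p = 0.0129) and Uqcr11 also lost the call without tumour 4 (0.165 and 0.103), and Uqcrh lost it when counts were scaled by library size only (0.105).

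ATP synthase held the members with the highest CPM. The catalytic subunit beta, Atp5b (ENSMUSG00000025393, chr10:128083273-128090391), was at 869.7, 1004, 959 and 863 CPM and its partner alpha, Atp5a1, at 765, 812, 708 and 653, and tumour 2 was highest and tumour 4 lowest for both. Per kb of merged exon they were at 218 ± 16.3 and 234 ± 22.0 CPM per kb (SD, n = 4), whereas with the principal transcript as the length Atp5b was the higher of them, at 482 beside 297. The gamma subunit Atp5c1, the rotor shaft, was at 226, 239, 235 and 233 CPM with an SD of 0.03 on the log2 scale, among the smallest of the members with at least 10 CPM (adjusted p = 0.358). Atp5sl was among the most variable, at 26.4, 16.3, 14.3 and 21.4 CPM (SD 0.40), highest in tumour 1 and lowest in tumour 3. Atp5l, subunit g of the membrane part, was at 0.222, 0.306, 0.172 and 0.425 CPM per kb of merged exon, the lowest of the tested members on this scale. With the principal transcript as the length its mean was 3.33 CPM per kb, above those of Ndufa4l2 at 1.52 and Atp5g1 at 2.78. Of its 85-base windows 73.3% also occur in transcripts of 7 other annotated genes, 5 of which are in the count table and together held 35.2 CPM, so the level of Atp5l is uncertain.

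Subunit c forms the rotor ring of ATP synthase, and Atp5g1, Atp5g2 and Atp5g3 encode the same mature protein. Per kb, Atp5g3 was at 79.3, 84.5, 69.1 and 73.7, Atp5g2 at 46.3, 33.0, 35.1 and 42.2 and Atp5g1 at 3.18, 2.34, 2.49 and 2.66 CPM per kb. Their shares of the summed level were 64.8% ± 4.08, 33.0% ± 3.89 and 2.25% ± 0.218 (SD, n = 4), and the order Atp5g3, Atp5g2, Atp5g1 was the same in 4 of 4 tumours. Of the windows of Atp5g2 86.7% also occur in other annotated transcripts, those of Gm10175 and Gm10231, which together held 0.316 CPM. How the counting treated such reads is not given, so the level of Atp5g2, and the shares and order that rest on it, are uncertain.

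For complex IV, the design allows a comparison of isoforms within each tumour. In each of the families Cox4, Cox6a, Cox6b, Cox7a, Cox7b and Cox8 the widely expressed form was the higher one in 4 of 4 tumours. Cox4i1 was at 155, 141, 158 and 137 CPM per kb in tumours 1 to 4 and Cox4i2, the form known from lung, at 4.75, 7.52, 6.42 and 4.23. The difference was 4.71 ± 0.37 on the log2 scale per kb (mean ± SD, n = 4), and Cox4i2 made up a mean of 3.73% ± 0.981 of the pair's level, or 2.02% ± 0.541 with the principal transcript as the length. Cox6a1 was at 105, 79.8, 68.2 and 68.1 CPM per kb and Cox6a2, of heart and skeletal muscle, at 2.59, 5.47, 5.99 and 6.82, a difference of 3.98 ± 0.91. Cox6b1 was at 260.0, 206, 211 and 202 CPM per kb and Cox6b2, of testis, at 3.18, 3.15, 4.12 and 3.33, a difference of 5.98 ± 0.28.

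Cox7a2 was at 80.4, 97.8, 89.9 and 82.5 CPM per kb and the muscle form Cox7a1 at 5.55, 2.39, 0.923 and 0.889, a difference of 5.48 ± 1.22. Cox7a1 (ENSMUSG00000074218, chr7:30184144-30186078) was 6.24-fold higher in tumour 1 than in tumour 4, from 27, 11, 4 and 4 counts in tumours 1 to 4, and its spread exceeded counting noise (adjusted p = 1.25e-05). Cox6a2 went the other way, with 16, 32, 33 and 39 counts and its lowest level in tumour 1 (adjusted p = 0.0116, 0.693 without tumour 1). The summed CPM of 9 pericyte and smooth muscle markers was 493, 266, 595 and 269.9, of which Acta2 alone was 300, 99.0, 372 and 106. Of these 9 markers, 5 were highest in tumour 1 and 4 in tumour 3, and 5 were lowest in tumour 4, beside 2 each in tumours 1 and 2. The summed CPM of 9 heart or skeletal muscle markers was 4.73, 5.34, 5.31 and 5.47, with 4 of the 9 at or under 3 counts in every tumour. The 2 with a mean of at least 1 CPM went different ways, Myh6 at 0.440, 0.813, 3.33 and 2.02 CPM and Tnnt2 at 2.20, 4.07, 0.617 and 1.67. The part of both lists in the levels of Cox7a1 and Cox6a2 was not tested.

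Cox7b2 and Cox8c had 0 counts in every tumour and Cox8b 1 count, in tumour 3. With 3 counts per library as the floor, Cox7b was at least 135-fold higher per kb than Cox7b2, and Cox8a was at least 81.4-fold higher than Cox8b and at least 104-fold higher than Cox8c, each taken in the tumour with the smallest ratio. Cox7b was at 89.5, 102, 123 and 89.2 CPM per kb and Cox8a at 92.4, 80.9, 90.9 and 80.7. Cox8b is known from muscle and brown fat, Cox7b2 and Cox8c from testis. The 5 germ cell markers of the testis summed to 0.440, 0.697, 0.864 and 0.595 CPM, and the brown fat marker Ucp1 was at 0 counts in every tumour.

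Among the other pairs, Ndufa4 exceeded Ndufa4l2 by 6.66 ± 0.47 and Atp5g2 exceeded Atp5g1 by 3.87 ± 0.08 on the log2 scale per kb. Cox7a2 was lower than Cox7a2l by a mean log2 difference of -0.55 ± 0.22, and Atp5g2 lower than Atp5g3 by -0.98 ± 0.27. With the principal transcript as the length the ratio moved by more than 1.5-fold for 4 pairs, to mean log2 differences of 5.62 for Cox4i1 and Cox4i2, 5.25 for Cox6b1 and Cox6b2, 7.61 for Ndufa4 and Ndufa4l2 and 5.00 for Atp5g2 and Atp5g1. Each of the 11 pairs had 1 direction in 4 of 4 tumours. An exact permutation test that flips the sign of each tumour's difference (two-sided) gave p = 0.125 for each, also after Benjamini-Hochberg adjustment over the 11 pairs. This is the smallest p that 4 tumours allow, so no pair could pass 0.05.

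**Figure D3:**
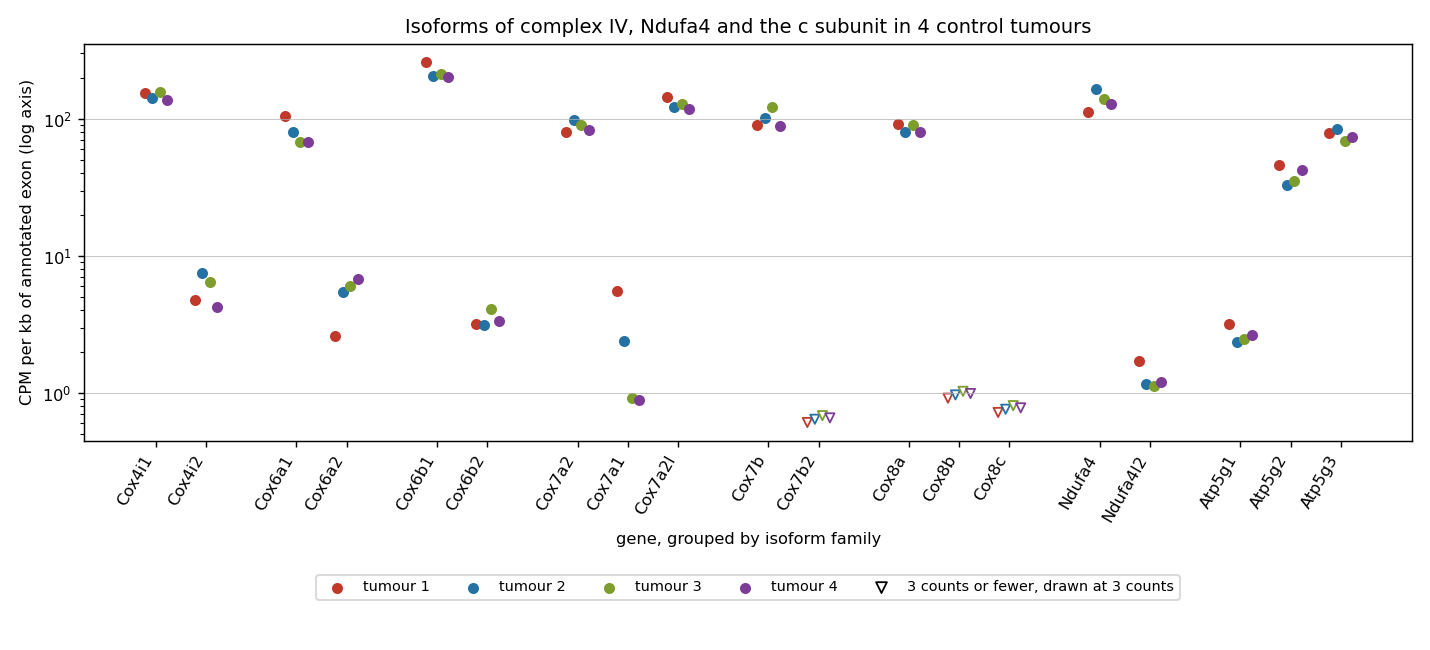
CPM per kb of annotated exon, on a log axis, of the isoforms in each family, with 1 point per tumour. Open triangles are values of 3 counts or fewer, drawn at 3 counts, and hold all values of Cox7b2, Cox8b and Cox8c. Cox7a1 has the widest spread, from 5.55 CPM per kb in tumour 1 to 0.889 in tumour 4.

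The remaining subunits of complex IV are the nuclear core partners Cox5a and Cox5b and the small subunits Cox6c and Cox7c. Cox5a was at 56.3, 84.7, 53.9 and 54.0 CPM, with tumour 2 apart from the others (adjusted p = 2.87e-19, 0.769 without tumour 2). Cox5b (ENSMUSG00000061518, chr1:36691449-36693681) was at 33.7, 23.1, 12.8 and 21.5 CPM, and its SD of 0.57 on the log2 scale was the largest of the members with at least 10 CPM. Tumour 1 had 2.62 times the CPM of tumour 3 for this gene (adjusted p = 5.74e-17). Cox6c was at 86.2, 81.9, 90.9 and 81.7 CPM (SD 0.07), a spread within counting noise (adjusted p = 0.16).

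The spread between the 4 tumours was tested gene by gene, with the 4 counts set against those that Poisson sampling at equal expression would give (chi-square test, adjusted over 14225 genes). Of 81 members, 61 varied beyond counting noise (75.3%), beside 76.7% of all genes tested, so the share of members was near that of all genes. Among genes with at least 10 CPM, 59 of 75 members varied (78.7%), beside 84.8% of all 10269, so at this level the share of members was lower. By complex the 61 were 27 of 37 in I, 4 of 4 in II, 8 of 8 in III, 11 of 15 in IV and 11 of 17 in V. Without tumour 1, 43 of 80 tested members varied, beside 62.3% of all genes tested in the same 3 tumours, and 17 of the 61 calls were lost. Without tumours 2, 3 and 4 in turn, 57, 51 and 55 of 81 members varied, beside 71.2, 62.4 and 71.9% of all genes, and 5, 11 and 7 calls were lost. The median SD of log2 CPM was 0.17 over members and 0.29 over all genes tested, and 64 of 81 members were below the latter. Among genes with at least 10 CPM the medians were 0.17 for 75 members and 0.25 for all 10269. In the bin from 100 to 300 CPM, 15 of 17 members were below the median SD of all genes in it (0.13 over members, 0.22 over all), and in the bin from 10 to 30 CPM 11 of 19 were (0.24 and 0.30). By complex, the median SD was 0.21 in I, 0.16 in II, 0.18 in III, 0.22 in IV and 0.14 in V.

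**Figure D4:**
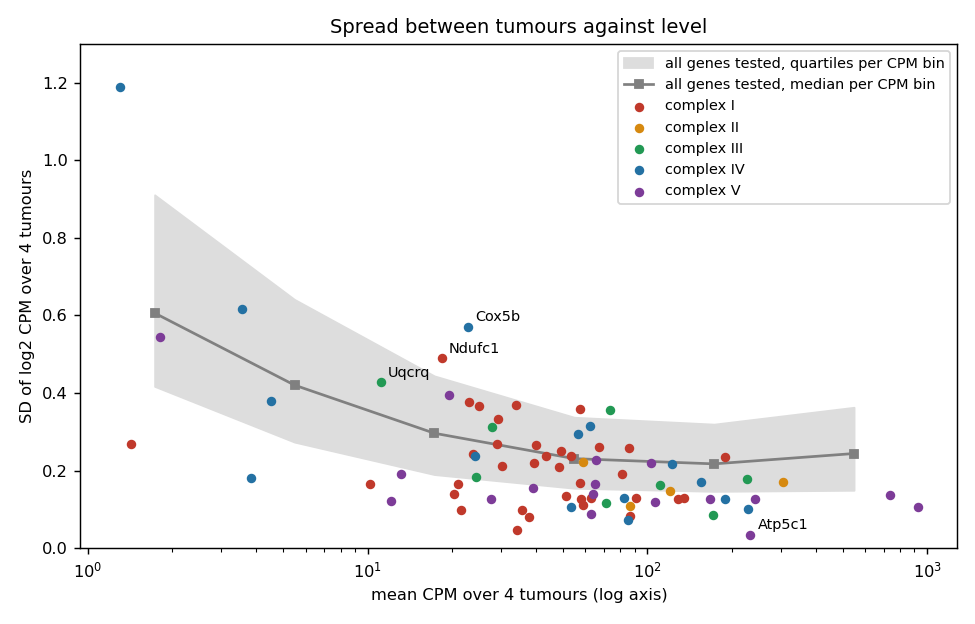
SD of log2 CPM over 4 tumours against mean CPM, on a log axis, with 1 point for each of 80 tested members, coloured by complex. The grey line and band give the median and quartiles of all genes tested in each CPM bin. Cox5b, Ndufc1 and Uqcrq lie highest among members with at least 10 CPM, at SDs of 0.57, 0.49 and 0.43, and Atp5c1 is among the lowest, at 0.03.

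The direction of the differences was not spread evenly over the tumours. Tumour 4 was the lowest of the 4 for 35 of 81 members, beside 17.7% of all genes tested, and the highest for 4 (Ndufb5, Cox6a2, Atp5l and Atp5s), beside 18%. Tumour 1 was the highest for 35 members, beside 31.4%, and the lowest for 14, beside 30.4%. Tumour 2 was highest for 15 members and lowest for 15, beside 20.4% and 19.4%, and tumour 3 highest for 27 and lowest for 17, beside 30.2% and 32.5%. In 8 of 81 members, beside 5.86% of all genes tested, 1 tumour stood apart from the others by Dixon's ratio, the gap to the nearest tumour over the range of log2 CPM. These are counts over members within 1 library each, so they carry no test of the tumours.

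The sizes were small. The median over members of log2 CPM in tumour 4 minus the mean of the other 3 was -0.13, beside 0.01 over all genes tested, and that of tumour 1 was 0.12, beside 0.01. Tumours 2 and 3 had medians of 0.03 and 0.04, beside 0.01 and -0.02, and the sign of both turned without tumour 4, to -0.038 and -0.049. In tumour 4, the median difference was -0.13 in complex I, -0.19 in II, -0.18 in III and -0.14 in IV, with all 12 members of complexes II and III and 14 of 15 tested members of complex IV below the others' mean. Counted by gene, the members grouped as complex V differed from this, with a median of -0.0042 in tumour 4 and 8 of 17 above the others' mean, while their median in tumour 3 was -0.12. Those 8 include Atp5s (0.09) and Atp5sl (0.22), which are not subunits of the enzyme. They also include Atp5l (0.87), which had 13, 17, 9 and 23 counts in tumours 1 to 4. The summed CPM of complex V was still lowest in tumour 4, at 2884, 3051, 2845 and 2747 in tumours 1 to 4. Within complex I, the members furthest below in tumour 4 were Ndufa2, with a log2 difference of -0.67, and Ndufs6, with -0.62. The summed CPM of all members was 7528, 7448, 7403 and 6848 in tumours 1 to 4.

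The differences were also taken by the length of the transcripts. Protein-coding genes with a principal transcript under 700 nt had a median log2 difference of 0.10 in tumour 1 and -0.08 in tumour 4 over 229 genes, and the 30 members of this length had 0.15 and -0.21. Over 1667 genes of 700 to 1500 nt the medians were 0.10 and -0.02, and the 32 members of this length had 0.07 and -0.09. Over 11029 genes of 1500 nt or more the medians were -0.0024 and 0.02, and the 19 members of this length had 0.08 and -0.08. Members under 700 nt thus had the larger median differences, and those of both longer classes had about the same. The part of transcript length in the members' differences was not tested.

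**Figure D5:**
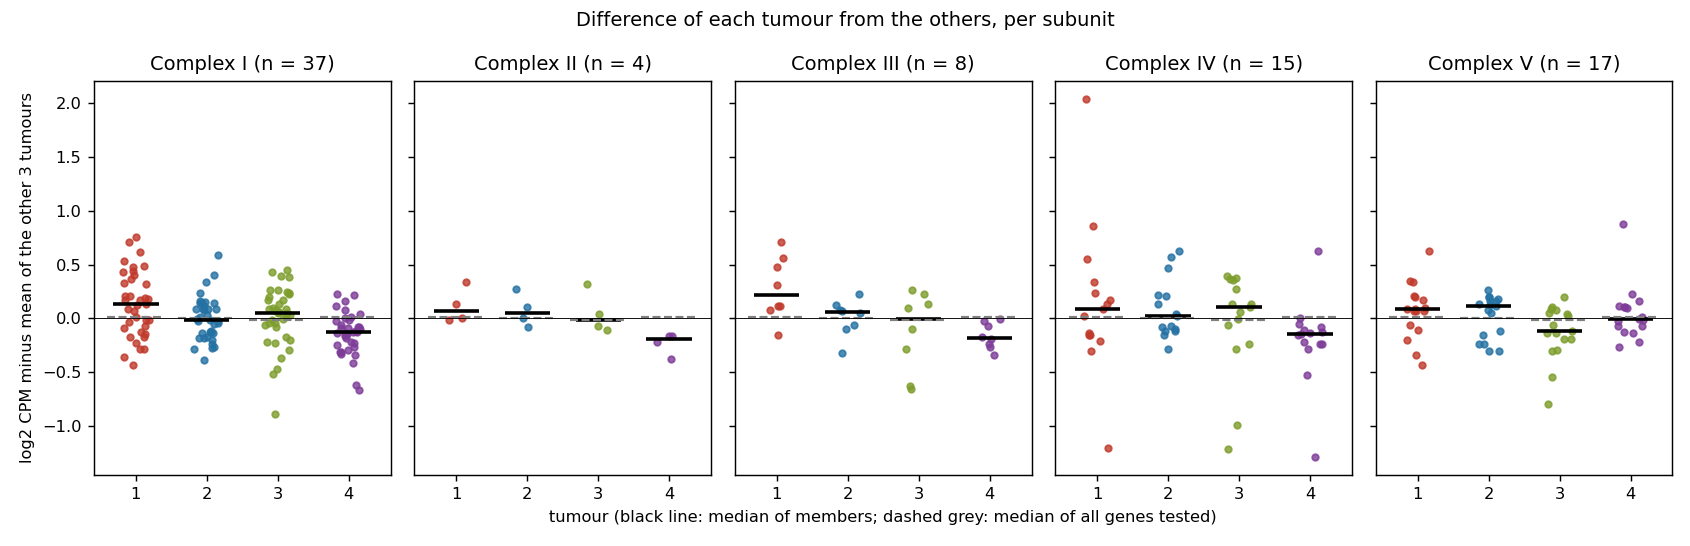
Log2 CPM in each tumour minus the mean of the other 3, with 1 point per tested member and 1 panel per complex. Black lines are medians over members and dashed grey lines medians over all genes tested, which lie between -0.02 and 0.01. In tumour 4 the black line is at -0.19 in complex II and -0.18 in complex III and at -0.0042 in complex V.

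Other genes of the pathway were taken from lists outside the symbol rule. Cytochrome c1 (Cyc1), a subunit of complex III, was at 127, 123, 116 and 102 CPM in tumours 1 to 4 and the somatic cytochrome c gene Cycs at 86.3, 100.4, 130.2 and 78.5, both lowest in tumour 4. Of the 6 subunits and carriers outside the rule (with Ndufab1, Usmg5, 2010107E04Rik and Atpif1), 5 were lowest in tumour 4 and 3 varied beyond counting noise. Atpif1, which inhibits ATP synthase when it runs in reverse, was at 168, 124, 126 and 109.9 CPM, highest in tumour 1. Assembly factors are needed to build the complexes without being part of them, and those that varied were 7 of 14 tested for complex I, 1 of 4 for II, 2 of 6 for III, 11 of 20 for IV and 0 of 3 for V. The median log2 difference of tumour 4 was -0.12 for complex I factors, 0.04 for II, -0.05 for III, -0.04 for IV and 0.09 for V.

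Of 75 tested genes of the mitochondrial ribosome, which translates the mitochondrially encoded subunits, 56 varied beyond counting noise, beside 76.7% of all genes tested. Tumour 1 was the highest for 42 of the 75, beside 31.4%, with a median log2 difference of 0.20. Tumour 3 was the lowest for 30, beside 32.5%, with a median of -0.12, and tumour 4 for 25, beside 17.7%, with -0.11. The 10 genes taken as a measure of mitochondrial mass, such as Vdac1 and Cs, had medians of 0.12 in tumour 1 and -0.13 in tumour 4, beside 0.12 and -0.13 for the respiratory members. By rank they differed from these, since tumour 4 was the lowest for 2 of the 10 and tumour 1 for 4. Of 12 biogenesis regulators, 9 varied. The coactivator Ppargc1a was at 4.62, 21.3, 14.6 and 13.2 CPM, lowest in tumour 1, and the mitochondrial transcription factor Tfb2m at 15.5, 31.6, 14.3 and 33.1, with tumours 1 and 3 low and tumours 2 and 4 high. Among the factors whose motifs were searched, Nrf1 was at 36.2, 33.5, 27.8 and 33.9 CPM, Gabpa at 68.2, 77.9, 83.5 and 77.1 and Yy1 at 146, 116, 92.6 and 117.

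The glycolysis list differed more between tumours than the respiratory members did. All 12 of its genes varied beyond counting noise, 11 were highest in tumour 1, and the median log2 difference was 0.71 in tumour 1 and -0.31 in tumour 4. Ldha, which makes lactate, was at 2032, 1196, 1449.5 and 1234 CPM and Pkm, the pyruvate kinase, at 1538, 1031, 809.8 and 661. The 8 hypoxia genes had a median of 0.53 in tumour 1 and 0.08 in tumour 4. The 4 epithelial markers had medians of 0.84 in tumour 1 and -0.13 in tumour 4, the 7 alveolar type 2 markers -0.61 and 0.48, and the 4 proliferation genes 0.43 and -0.47, with all 4 proliferation genes lowest in tumour 4. The 5 pan-leukocyte markers had 1.14 in tumour 3. The 6 endothelial markers had 0.52 in tumour 3 and the 6 fibroblast markers -0.26 in tumour 4. By their medians, glycolysis and proliferation genes were thus highest in tumour 1 and lowest in tumour 4, as the members were, and alveolar type 2 markers the other way round. The glycolysis list was nearly as low in tumour 3 (-0.29), with 4 genes lowest in each of tumours 2, 3 and 4. The epithelial list was high in tumour 1 but lower in tumours 2 and 3 (-0.21 and -0.19) than in tumour 4. Of its 4 markers, 3 were highest in tumour 1, while Cdh1 differed little and was lowest there. The part of these lists in the members' differences was not tested.

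Reads shared between genes limit some of these values. Of the 85 members, 33 had at least 1 window of 85 bases, the read length, that also occurs in an annotated transcript of another gene, and 29 overlapped an exon of another gene. For Cox7c, 49.3% of windows were shared with Gm10012 and Gm12338, which together held 36.6 CPM beside 24.1 for Cox7c, and for Atp5h 33.8% were shared with Gm10250, which held 92.2 CPM beside 62.9. How the counting treated such reads, and whether it used strand, is not given in the sources used here. Among the tested members with no shared window, 38 of 49 varied beyond counting noise.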

How the data were processed

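RNA of 4 macrodissected lung tumours was sequenced, 1 library each. The authors trimmed reads with Cutadapt, aligned them to mm10 with HISAT2 and obtained a count per Ensembl gene, with featureCounts 1.4.4 named in the submitters' processing notes. The deposited tables hold raw counts with no normalization, and a table of log2 normalised counts that the authors made with TMM and voom. The combined and single tables held equal values in 156068 of 156068 cells. Counts were scaled here with TMM (edgeR 4.0.16, R 4.3.3) to CPM, and log2 values used a prior of 0.5 on the count and of 1 on the effective size. Genes with a mean of at least 1 CPM were tested (14225). Groups follow the labels, and tumours are named by their replicate number. Nothing in the labels says whether the tumours came from separate mice, so p-values hold for these samples only. Those of the chi-square test measure departure from counting noise, and those of the permutation test how consistent a difference within tumours was.

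The 4 counts of each gene were compared by a chi-square test against Poisson expectations in proportion to effective library size, with Benjamini-Hochberg adjustment over all genes tested at a threshold of 0.05. On Poisson counts simulated for the same 14225 genes it called 85% of 100 genes changed 2-fold in 1 tumour, 69% of 100 changed 1.5-fold and 0.0428% of unchanged genes. These counts held no other variation between tumours or libraries, so the rates hold for counting noise only. Isoform pairs were compared by an exact sign-flip permutation test. Exon lengths and positions came from GENCODE M21 (GRCm38), where 37693 IDs (96.6%) and all 85 members were found, and promoters from RefSeq (GRCm38.p6). Windows of 85 bases of the principal transcript were looked up in transcripts of other genes. Members named with values were those of isoform pairs, catalytic and redox-centre subunits, the highest and lowest per complex, the 8 most and 4 least variable at 10 CPM or more, those with 1 tumour apart, and those below 1 CPM. The values of 1 member are not reported here. Genes that share reads, other subunits and genes of the lists were named beside them. The members, gene lists and tests were chosen with earlier results of these data known. The promoter motifs were chosen after the data were seen, and the NRF1 core replaced one longer by 1 base that had been run first. DESeq2 1.42.0 size factors, library size only, other filters and pseudocounts, other lengths, the deposited log2 values and leaving out each tumour served as alternatives. Reads carried no molecular identifiers as far as the sources state, and intervals and floors therefore hold for counting error alone.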

Additional observations from a re-analysis of the deposited data

Results flagged for a closer look

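For 75 members with at least 10 CPM and for the summed CPM of each complex, 80 results in all, a tumour was looked for whose gap to its nearest neighbour divided by the range of log2 CPM over the 4 tumours passed Dixon's 95% critical value. Chance gives about 1 in 20, here 4, and 7 passed, all of them single genes. Among all genes tested 5.86% passed, and 8 of 81 members did, the eighth being Ndufa4l2 under 10 CPM.

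Tumour 1 stood apart as the highest for the complex I accessory subunits Ndufa11, at 33.2 CPM with the others between 19.0 and 20.2, and Ndufa7, at 81.1 CPM with the others between 48.3 and 52.7. It was the lowest for Atp5j, a stalk subunit of ATP synthase, at 81.5 CPM with the others between 108 and 113. Tumour 2 was the highest for Cox5a, at 84.7 CPM with the others between 53.9 and 56.3, and the lowest for Atp5s, at 10.7 CPM with the others between 12.5 and 12.7. Tumour 3 was the lowest for Ndufa6, at 33.6 CPM with the others between 46.2 and 47.0, and for Atp5j2, at 33.1 CPM with the others between 40.8 and 41.1. The spread of Atp5s was within counting noise (chi-square test, adjusted p = 0.587), and that of each of the others exceeded it.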

How the results depend on the processing

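No paired analysis was possible because the labels give 1 group. There were 114 results and 767 alternatives. None could change direction against a called difference, because the spread calls have no direction and no isoform pair could pass 0.05. The 11 isoform pairs kept their direction in each of the 8 alternatives run per pair, while the median differences of tumours 2 and 3 changed sign in some alternatives. The number of members varying beyond counting noise was 61 under DESeq2 size factors and 63 under library size only, ranged from 43 to 57 when 1 tumour was left out, and was 38 among members with no shared window, where fewer genes were counted. Of single calls, 35 were lost when 1 of the tumours was left out and 3 gained, and library size only lost 1 and gained 3. The number with 1 tumour apart was 5 under library size only. The median log2 difference of tumour 4 ranged from -0.15 to -0.08 when another tumour was left out, and was -0.0042 in complex V alone. That of tumour 2 was -0.038 without tumour 4, -0.0043 under library size only and -0.018 in complex I alone. That of tumour 3 ranged from -0.049 to 0.062, so its sign rests on tumour 4, and was -0.12 in complex V alone. That of tumour 1 was 0.21 in complex III alone and 0.18 under library size only, where all genes tested had 0.08. Leaving the 10 most abundant genes out of the total gave shares of 0.221% for complex I, 0.0776% for III, 0.119% for IV and 0.312% for V. With the longest transcript as the length, the median levels were 43.8, 71.3, 39.0 and 73.4 CPM per kb for I, II, IV and V, and with the principal transcript 48.6, 73.2, 72.7, 92.4 and 95.4 for I to V. For complex IV it was 85.3 at 10 CPM or more and ranged from 26.2 to 50.7 when 1 tumour was left out. The c subunit shares became 0.979% (longest), 0.859% (principal) and 5.33% (no length) for Atp5g1, 27.7% (principal) and 26.6% (no length) for Atp5g2 and 71.4% (principal) for Atp5g3. The cause of the other differences was not tested. The subset without shared windows, the subset without Atp5s, Atp5sl, Atp5l2 and Cox7a2l, single complexes and the principal transcript length were chosen after seeing the data. Depth limits members near 1 CPM, of which Cox7a1 had 4 counts in each of tumours 3 and 4.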
